A study of Mus musculus with 8 samples.

Results

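The insulin-like growth factor (IGF) binding proteins and the genes that work with them in the circulation were examined in the liver of POMCMfn2KO mice, which by their name lack Mfn2 in POMC-expressing cells. The set comprised 10 genes: the binding proteins Igfbp1, Igfbp2, Igfbp3, Igfbp4, Igfbp5, Igfbp6 and Igfbp7, the ligand Igf1, the acid-labile subunit Igfals and the receptor Igf1r. Every probe set that the platform annotation gave to these symbols alone was used, 26 probe sets of 45037 that were no array controls. The family was chosen on the large differences of Igfbp1 and Igfbp2 between the same genotypes, so its values in this comparison are a description and are given without p-values.

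IGF1 is made mainly by hepatocytes under the control of growth hormone and circulates almost wholly bound. IGFBP3, or less often IGFBP5, holds it in a long-lived ternary complex with the acid-labile subunit, while IGFBP1, IGFBP2 and IGFBP4 form smaller, shorter-lived complexes. In the liver, Igfbp1 is known for rapid induction by fasting, glucagon, glucocorticoids and cellular stress and for its repression by insulin. Igfbp2 is also known to be higher in fasting.

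Whole liver was taken from 8 mice aged 6 weeks, 3 controls with the genotype label WT and 5 POMCMfn2KO mice, with 1 Affymetrix GeneChip per mouse. Mfn2 encodes a mitochondrial outer membrane protein needed for fusion, and POMC marks hypothalamic melanocortin neurons as well as cells of the pituitary. All 8 mice shared a mixed background of C57Bl/6J, FVB/N and 129, chow feeding and a cycle of 12 h light and 12 h dark. The labels name biological replicates but give neither the Cre driver line nor the sex, the feeding state or the time of collection. The values are log2 levels per probe set, and a difference of 1 is a doubling in signal. Levels of different probe sets are not on a common scale and are not compared with each other.

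The arrays had medians of 5.79 to 5.81 over all their probe sets. Markers of hepatocytes were bright in all livers: the mean of 6 matched markers lay between 14.46 and 14.47 in controls and between 14.51 and 14.70 in POMCMfn2KO, with Cps1 as the only tested member that rose. POMCMfn2KO livers 2 and 3 stood apart by pancreatic acinar transcripts. The mean of the 12 matched acinar markers was 10.26 and 10.47 there, against 6.20 to 6.24 in controls and 6.20 to 6.51 in the other 3 POMCMfn2KO livers. In whole tissue, fewer cells of a type and less RNA per cell cannot be told apart.

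Of the 26 probe sets, 23 were bright enough to be tested, at least 1 for each of the 10 genes. In a limma fit over all 22519 tested probe sets, adjusted by the Benjamini-Hochberg method and called at 0.05, 2 of the 23 rose, 2 fell and 19 did not pass. The 2 that rose belonged to Igfbp1 and Igfbp2, and the 2 that fell to Igfbp4 and Igfbp5. Over all tested probe sets, 6.86% rose and 8.47% fell. With each gene represented by its brightest probe set, 2 of the 10 rose and 1 fell, beside 6.36% and 10.2% of 11986 genes. The values of the genotypes did not overlap in 8 of the 23 probe sets, 4 higher and 4 lower in POMCMfn2KO, beside 26.3% of all tested probe sets. The median difference was -0.02 over the 23 probe sets and 0.00 over all tested probe sets. Without POMCMfn2KO livers 2 and 3, 1 of the 23 rose (Igfbp2) and 1 fell (Igfbp5), beside 1.73% and 2.5% of all tested probe sets.

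**Figure D1:**
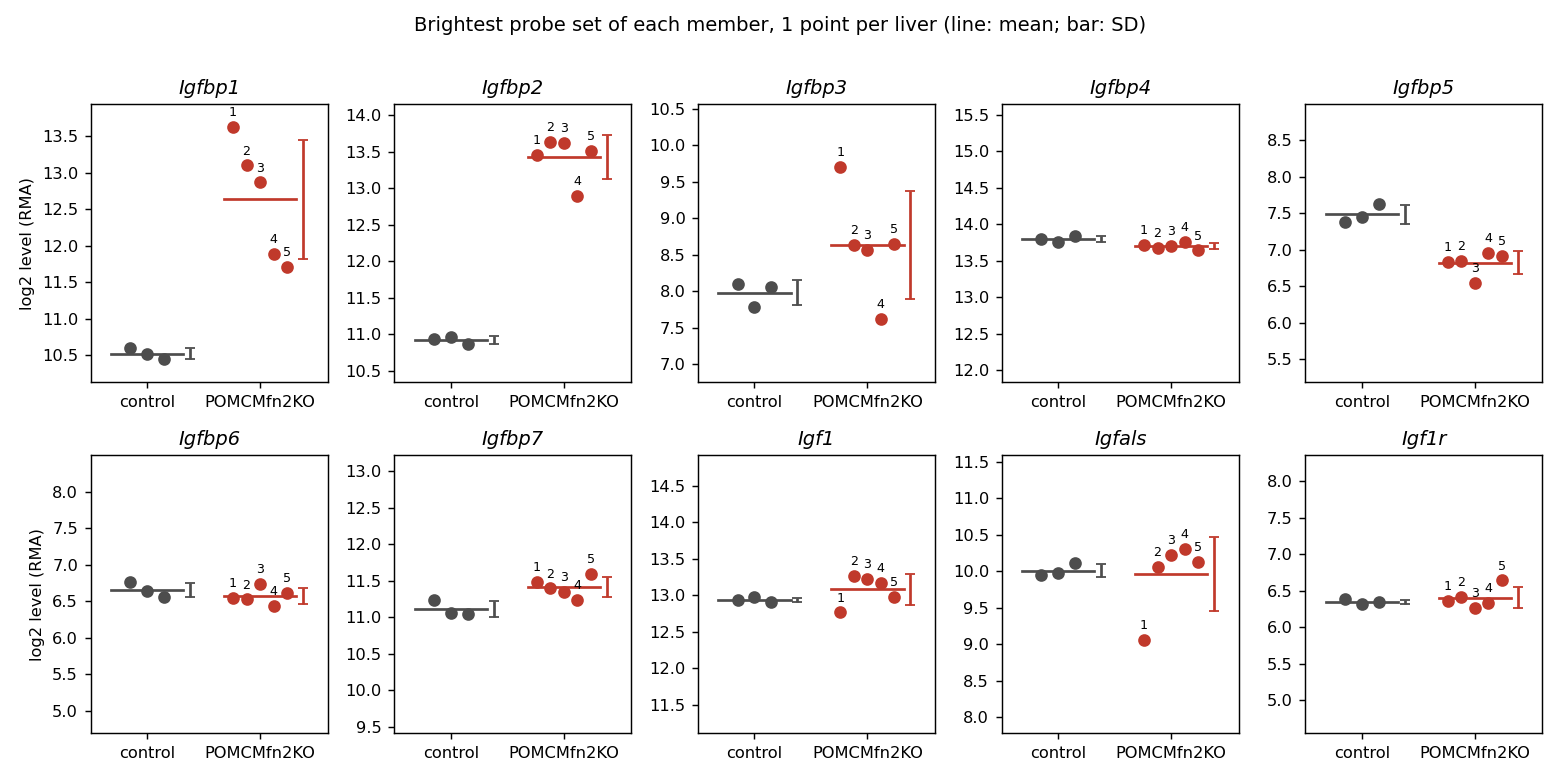
Log2 level of the brightest probe set of each of the 10 genes (y axes, each spanning the same number of log2 units) in 3 control livers (grey) and 5 POMCMfn2KO livers (red, numbered 1 to 5), with the group mean as a line and the SD as a bar. Every POMCMfn2KO value of Igfbp1 and Igfbp2 lies above every control value, and every POMCMfn2KO value of Igfbp5 lies below.

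Igfbp1 and Igfbp2, which form the small circulating complexes, were the members with the largest differences. The 250 bases before their RefSeq start sites are shown because the promoters of this pair are known to be built differently. Igfbp2 has 2 RefSeq start sites, and the first by position is shown. Capitals mark CAAAACA, the core of the element through which insulin and forkhead proteins are known to act on Igfbp1, and GGGCGG, the GC box of Sp family proteins. The windows lie on the forward strand of GRCm38.p6, that of Igfbp1 at chr11:7197537-7197786 and that of Igfbp2 at chr1:72824230-72824479.
Igfbp1: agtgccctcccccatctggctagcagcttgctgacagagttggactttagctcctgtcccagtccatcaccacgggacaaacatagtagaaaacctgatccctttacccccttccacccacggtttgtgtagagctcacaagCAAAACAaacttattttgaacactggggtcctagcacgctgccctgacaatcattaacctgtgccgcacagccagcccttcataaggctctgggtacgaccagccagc
Igfbp2: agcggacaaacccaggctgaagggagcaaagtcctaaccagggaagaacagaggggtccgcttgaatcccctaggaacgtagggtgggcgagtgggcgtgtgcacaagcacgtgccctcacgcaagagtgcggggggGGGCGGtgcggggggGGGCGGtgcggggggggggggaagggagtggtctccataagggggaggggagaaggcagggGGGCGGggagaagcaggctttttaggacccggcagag

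The Igfbp1 window held 1 CAAAACA, starting 108 bases before the start site, and no GGGCGG. It also lacked the other forkhead core (GTAAACA), the TATA box (TATAAA) and the cyclic AMP response element (TGACGTCA). The first Igfbp2 window held 3 GGGCGG, starting 113, 98 and 37 bases before the start site, and 1 CACGTG (the E box) 142 bases before it. It held no CAAAACA or GTAAACA. The second Igfbp2 window, at chr1:72825137-72825436, held none of the motifs searched for. GC content of the stretches shown was 53.2% for Igfbp1 and 67.2% for Igfbp2, with 5 and 14 CpG dinucleotides. The search covered both strands of windows of 300 bases, 250 before and 50 after a start. Among 32851 such windows in the RefSeq table, CAAAACA was in 6.28%, GTAAACA in 3.65%, GGGCGG in 35.7%, CACGTG in 7.15%, TATAAA in 13.6% and TGACGTCA in 1.79%. All 10 genes had a window in that table, 13 windows in all. CAAAACA was in 1 of the 13, that of Igfbp1, and GGGCGG in 5, from Igfbp2, Igfbp7, Igf1r and Igfals. GTAAACA was in 1, from Igfals, TATAAA in 2, from Igfbp4 and Igfbp6, and TGACGTCA in none of the 13.

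Igfbp1 (probe set 1418918_at) read 10.61, 10.51 and 10.45 in controls 1 to 3. In POMCMfn2KO livers 1 to 5 it read 13.62, 13.10, 12.87, 11.88 and 11.71. All 5 POMCMfn2KO livers were higher than every control, and livers 4 and 5 were the lowest of them. The mean went from 10.52 ± 0.08 (SD, n = 3) to 12.64 ± 0.82 (SD, n = 5), a difference of 2.11 (SE 0.39, 95% interval 1.23 to 3.00), or 4.33-fold. Without POMCMfn2KO livers 2 and 3 together the difference was 1.88 and was not called. The SD within POMCMfn2KO was larger than that of 99.3% of all tested probe sets, whose median was 0.139, and the highest and lowest of the 5 livers differed 3.78-fold.

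Igfbp2 (1454159_a_at) read 10.93, 10.96 and 10.86 in controls. POMCMfn2KO livers 1 to 5 read 13.46, 13.63, 13.61, 12.90 and 13.51, all above the controls, with liver 4 the lowest. The mean went from 10.92 ± 0.05 (SD, n = 3) to 13.42 ± 0.30 (SD, n = 5), a difference of 2.50 (SE 0.15, 95% interval 2.16 to 2.85), or 5.66-fold. The highest and lowest POMCMfn2KO livers differed 1.66-fold. Over the alternatives and with single arrays left out, its difference ranged from 2.37 to 2.65. The order of the POMCMfn2KO livers was not shared by the pair: liver 1 was the highest for Igfbp1 but the fourth for Igfbp2, and liver 5 was the lowest for Igfbp1 but the third for Igfbp2.

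**Figure D2:**
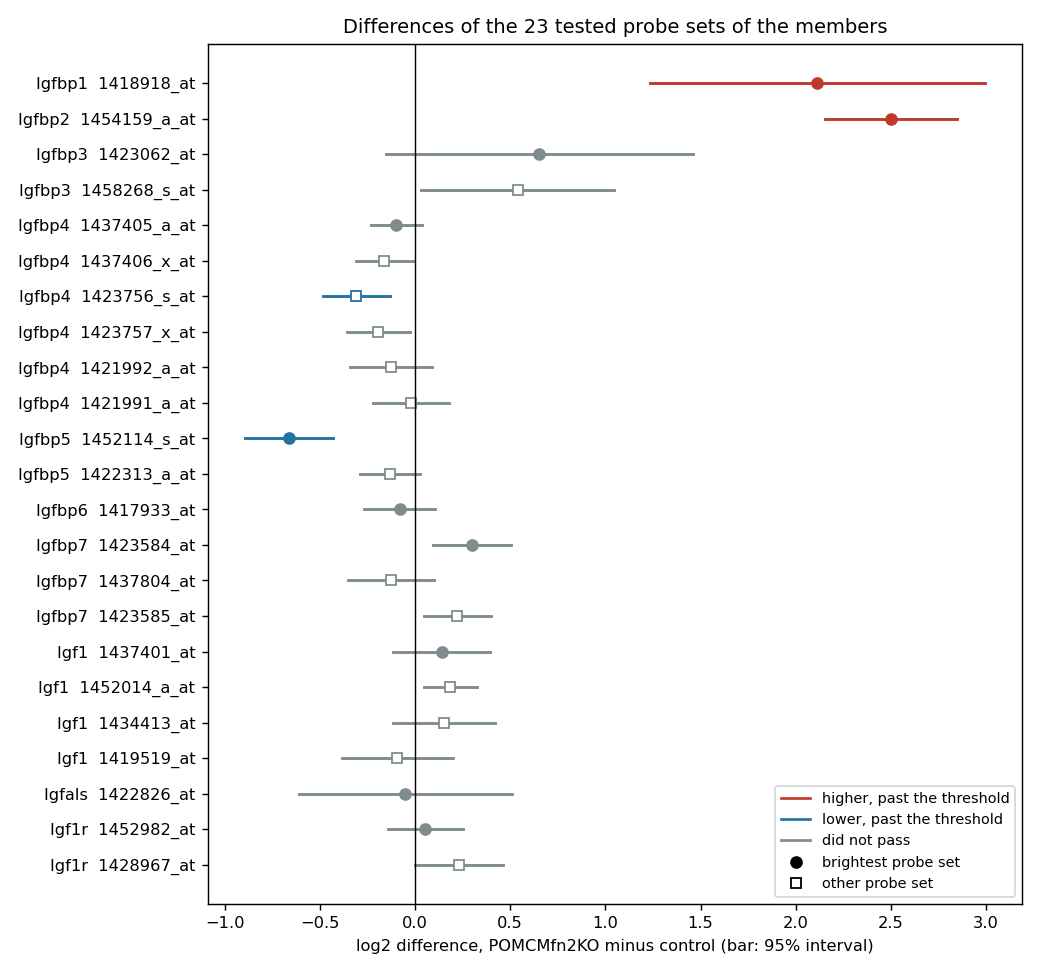
Log2 difference, POMCMfn2KO minus control (x axis), with its 95% interval for the 23 tested probe sets (y axis); filled circles are the brightest probe set of a gene and open squares the others. Only Igfbp1 and Igfbp2 lie beyond 1 log2 unit, 1 probe set each of Igfbp4 and Igfbp5 lies below 0 past the threshold, and the others did not pass.

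Igfbp3, the main carrier of IGF1 in the ternary complex, was higher than every control in 4 of 5 POMCMfn2KO livers and did not pass. Its brighter probe set, 1423062_at, read 8.09, 7.78 and 8.06 in controls and 9.70, 8.63, 8.56, 7.62 and 8.65 in POMCMfn2KO livers 1 to 5. Against the control mean, liver 1 differed by 1.72 and liver 4 by -0.36. The mean was 7.98 ± 0.17 (SD, n = 3) in controls and 8.63 ± 0.74 (SD, n = 5) in POMCMfn2KO, a difference of 0.65 (SE 0.36, 95% interval -0.15 to 1.46). The second probe set, 1458268_s_at, read 7.99, 7.88 and 8.01 in controls and 9.20, 8.47, 8.41, 7.91 and 8.51 in POMCMfn2KO. It had the same highest and lowest liver and a difference of 0.54 (95% interval 0.03 to 1.05). Without POMCMfn2KO liver 4 both passed, with differences of 0.91 and 0.69.

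Igfbp1 and Igfbp3 are neighbours on chromosome 11 and Igfbp2 and Igfbp5 on chromosome 1, with 0 genes between them in the RefSeq annotation of either pair. The differences were 2.11 for Igfbp1 and 0.65 for Igfbp3, with intervals that overlapped (1.23 to 3.00 and -0.15 to 1.46). Whether Igfbp1 and Igfbp3 differed from each other in this was not tested. For Igfbp2 and Igfbp5 the differences had opposite signs, 2.50 beside -0.66. The nearest genes outside the pairs with a bright probe set, Tns3 beyond Igfbp3 and Rpl37a beyond Igfbp2, had differences of 0.14 and 0.10 and did not pass. Tns3 encodes the focal adhesion protein tensin 3 and Rpl37a a ribosomal protein.

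Igfbp5, the other binding protein that can enter the ternary complex, was lower by its brighter probe set. Probe set 1452114_s_at read 7.38, 7.45 and 7.63 in controls and 6.84, 6.85, 6.55, 6.96 and 6.92 in POMCMfn2KO, with no overlap. The mean went from 7.49 ± 0.13 (SD, n = 3) to 6.83 ± 0.16 (SD, n = 5), a difference of -0.66 (SE 0.10, 95% interval -0.89 to -0.43), or 1.58-fold lower. Over the alternatives and with single arrays left out, the difference ranged from -0.74 to -0.40. The dimmer probe set 1422313_a_at read 7.0, 6.99 and 7.02 in controls and 6.83, 7.0, 6.77, 6.93 and 6.81 in POMCMfn2KO. There the values overlapped, with a difference of -0.13 (95% interval -0.29 to 0.03) that did not pass. The value of -0.40 is that of both probe sets averaged.

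Igfbp4, an inhibitory binding protein that the protease PAPP-A cleaves, had 6 probe sets, and 1 of them passed. Probe set 1423756_s_at read 13.20, 13.09 and 13.17 in controls and 12.76, 12.88, 12.88, 13.00 and 12.72 in POMCMfn2KO, with no overlap. Its mean went from 13.16 ± 0.06 (SD, n = 3) to 12.85 ± 0.11 (SD, n = 5), a difference of -0.31 (SE 0.08, 95% interval -0.48 to -0.13), or 1.24-fold lower. The call was lost without control 1, 2 or 3 and without POMCMfn2KO 2 or 3, with differences between -0.35 and -0.28 over all single arrays left out. The brightest probe set, 1437405_a_at, read 13.80, 13.76 and 13.84 in controls and 13.72, 13.67, 13.70, 13.76 and 13.64 in POMCMfn2KO. Its difference of -0.10 (95% interval -0.23 to 0.04) did not pass. The other 4 lay at -0.16 (1437406_x_at), -0.19 (1423757_x_at), -0.13 (1421992_a_at) and -0.02 (1421991_a_at), and none of them passed. The sign of the last turned positive without control 3, POMCMfn2KO 1 or POMCMfn2KO 2. Probe sets ending in _x_at or _s_at can bind more than 1 transcript.

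Igfbp6, which prefers IGF2 over IGF1, did not pass. Probe set 1417933_at read 6.76, 6.64 and 6.56 in controls and 6.54, 6.52, 6.74, 6.43 and 6.61 in POMCMfn2KO. The values overlapped, with a difference of -0.08 (95% interval -0.27 to 0.11).

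Igfbp7, a secreted protein of low IGF affinity found in blood vessels, did not pass on any of its 3 probe sets. The brightest, 1423584_at, read 11.24, 11.06 and 11.04 in controls and 11.49, 11.39, 11.35, 11.23 and 11.59 in POMCMfn2KO. POMCMfn2KO liver 4 lay within the controls and the other 4 above them, a difference of 0.30 (SE 0.09, 95% interval 0.09 to 0.50). It passed with a trended and robust variance, with quantile normalization, with the brightest probe set per gene, and without POMCMfn2KO 4 (0.34). With all 3 Igfbp7 probe sets averaged the difference was 0.13 and did not pass. Probe set 1423585_at read 6.33, 6.19 and 6.36 in controls and 6.45, 6.47, 6.62, 6.62 and 6.41 in POMCMfn2KO, a difference of 0.22 without overlap. The third, 1437804_at, had a difference of -0.13.

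Igfbp4, Igfbp5, Igfbp6 and Igfbp7 are also expressed by stromal and endothelial cells, so markers of these cells are given beside them. The mean of 10 stellate and fibroblast markers lay between 8.60 and 8.80 in controls and between 8.55 and 8.85 in POMCMfn2KO. By brightest probe sets, 1 of the 10, Hand2, rose. Another tested Hand2 probe set, 1422221_at, differed by -0.003 and did not pass. The mean of 9 endothelial markers lay between 7.87 and 8.11 in controls and between 7.96 and 8.37 in POMCMfn2KO. The lowest POMCMfn2KO mean was in liver 4, also the lowest for Igfbp3. The highest was in liver 5, while Igfbp3 was highest in liver 1. Of 7 tested endothelial markers 1 rose, the sinusoidal scavenger receptor Stab2, by 0.55 (limma adjusted p = 0.0121). The mean of 9 Kupffer cell markers lay between 9.20 and 9.53 in controls and between 8.71 and 9.45 in POMCMfn2KO, and 1 of 9, Timd4, fell by 0.69 (limma adjusted p = 0.00471). Of 4 matched cholangiocyte markers, 3 were tested by their brightest probe sets and 0 passed in limma, also 0 at an unadjusted p under 0.05. A dimmer probe set of Sox9, 1424950_at, rose by 0.29 (limma adjusted p = 0.026). The mean of the 4 lay between 5.52 and 5.91 in controls and between 5.57 and 5.84 in POMCMfn2KO. The part of these cells in the values of the binding proteins was not tested. With an unadjusted limma p under 0.05, 4 of the 7 endothelial markers were higher and 0 lower, 0 of the 9 Kupffer markers were higher and 3 lower, and 2 of the 10 stellate markers were higher and 1 lower. Over all tested genes 13.8% were higher and 18.8% lower by that measure. At the adjusted threshold, 6.36% of all tested genes rose and 10.2% fell.

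Igf1, the ligand, did not pass on any of its 4 probe sets. The brightest, 1437401_at, read 12.94, 12.97 and 12.91 in controls and 12.76, 13.27, 13.22, 13.17 and 12.98 in POMCMfn2KO. POMCMfn2KO liver 1 was below and the other 4 above all controls. The mean was 12.94 ± 0.03 (SD, n = 3) in controls and 13.08 ± 0.21 (SD, n = 5) in POMCMfn2KO, a difference of 0.14 (95% interval -0.11 to 0.39). Probe set 1452014_a_at read 12.89, 12.91 and 12.90 in controls and 13.06, 13.17, 13.05, 13.13 and 13.02 in POMCMfn2KO. These values did not overlap, with a difference of 0.19 (95% interval 0.05 to 0.32), which passed only with a trended and robust variance among the alternatives run. The other probe sets lay at 0.15 (1434413_at) and -0.09 (1419519_at). The upper ends of the intervals of the first pair were 0.39 and 0.32, far under the differences of Igfbp1 and Igfbp2.

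Igfals encodes the acid-labile subunit, which is made by hepatocytes in response to growth hormone. Its probe set 1422826_at read 9.95, 9.98 and 10.11 in controls and 9.07, 10.06, 10.22, 10.31 and 10.13 in POMCMfn2KO. Liver 1 was the lowest of all 8, and the other 4 lay within or above the range of the controls. The difference was -0.05 (SE 0.25, 95% interval -0.61 to 0.51), and 0.17 without liver 1.

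Igf1r, the receptor tyrosine kinase for IGF1, is known to be scarce in adult hepatocytes, and its probe sets were dim. Of 5 probe sets, 2 were bright enough to be tested. Probe set 1452982_at had a mean of 6.35 ± 0.03 (SD, n = 3) in controls and 6.41 ± 0.14 (SD, n = 5) in POMCMfn2KO, a difference of 0.05 (95% interval -0.14 to 0.25). Probe set 1428967_at went from 6.12 ± 0.19 to 6.35 ± 0.13, a difference of 0.23 (95% interval -0.00 to 0.46), and neither passed. The other 3 (1446303_at, 1452108_at and 1426565_at) lay under the level used to leave out dim probe sets, with differences of -0.14, -0.05 and 0.21.

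The POMCMfn2KO livers differed from each other more than the controls did in several members. The plot of each liver against the control mean sets them beside 4 other genes, picked after the values were seen: the growth hormone receptor Ghr, the growth hormone-induced inhibitors Socs2 and Cish, and Lpin1, a fasting-responsive phosphatidate phosphatase. Liver 1 had the highest Igfbp1, Igfbp3 and Lpin1 of the 5 and the lowest Igf1 (1437401_at), Igfals, Ghr, Socs2 and Cish. On the Igf1 probe sets 1452014_a_at and 1419519_at liver 5 was the lowest, at 13.02 and 10.77, against 13.06 and 11.17 in liver 1. Its Ghr read 12.00, against 13.23 to 13.29 in controls and 12.58 to 13.25 in the other POMCMfn2KO livers. Its Lpin1 read 12.20, against 8.71 to 8.80 in controls. Liver 4 had the lowest Igfbp2, Igfbp3 and Lpin1 and the highest Igfals and Ghr of the 5, and its Lpin1 of 7.26 lay below all controls. The acinar markers of livers 1 and 4 were at 6.41 and 6.51, and liver 4 had the highest mean of the 2 matched erythroid markers, 7.29 against 6.34 to 6.35 in controls. The part of these transcripts in the values of the members was not tested.

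**Figure D3:**
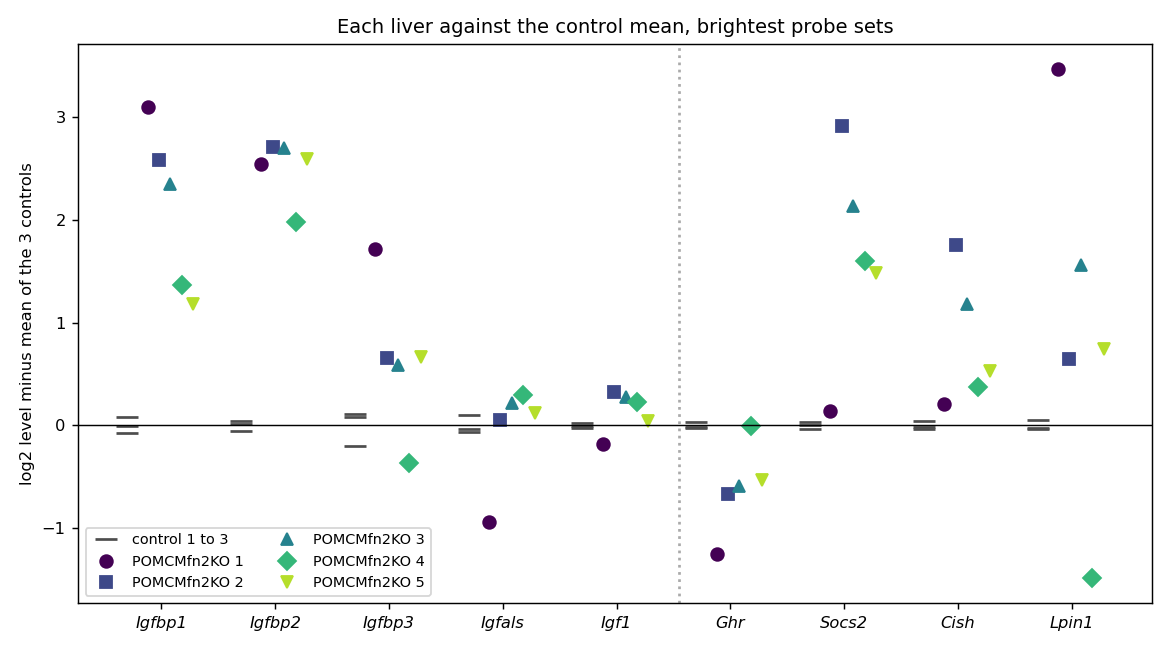
Log2 level minus the mean of the 3 controls (y axis) for 5 members and, right of the dotted line, 4 other genes (x axis), brightest probe sets; grey bars are the controls and each symbol is 1 POMCMfn2KO liver. Liver 1 is at the top for Igfbp1, Igfbp3 and Lpin1 and at the bottom for Igfals, Igf1, Ghr, Socs2 and Cish, and liver 4 is at the bottom for Igfbp2, Igfbp3 and Lpin1.

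Around the members, 86 other genes of the IGF axis were listed, of which 81 matched a symbol and 71 had a brightest probe set bright enough to be tested. The lists were chosen with earlier results of these data known, so their counts are a description. Of the 71, 12 rose and 7 fell (limma, Benjamini-Hochberg over all tested probe sets), with a median difference of 0.02 beside -0.02 over all tested genes. Of all tested genes, 6.36% rose and 10.2% fell. Without POMCMfn2KO livers 2 and 3, 6 of the 71 rose and 2 fell, beside 1.6% and 2.94% of all tested genes. Of the 19 calls, 8 held without any single array.

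Among 5 tested ligands and receptors, the mannose 6-phosphate receptor Igf2r, which clears IGF2, fell by 0.26 (adjusted p = 0.0439 in limma, lost without any single control and without POMCMfn2KO 2, 3 or 4). Another Igf2r probe set, 1424111_at, differed by -0.29 and did not pass (limma adjusted p = 0.172). The fetal ligand Igf2 (-0.14) and the insulin receptor Insr (0.04) did not pass. Of 7 tested proteases and protease inhibitors of the binding proteins, 1 rose and 1 fell, beside 6.36% and 10.2% of all tested genes. Adamts1, a secreted metalloprotease, went from 6.92 ± 0.09 to 7.67 ± 0.08 (SD, n = 3 and 5), with limma adjusted p = 0.000469. The lysosomal protease Ctsd fell by 0.38 (limma adjusted p = 0.0178, lost without control 2 or 3 and without POMCMfn2KO 2 and 3 together). Of 7 tested relatives of the binding proteins, 1 rose and 1 fell, both matricellular CCN proteins. Ccn2 went from 7.46 ± 0.08 to 9.30 ± 0.96 (SD, n = 3 and 5; limma adjusted p = 0.0278, lost without any single control and without POMCMfn2KO 2, 3 or 5). Ccn1 went from 7.78 ± 0.08 to 6.68 ± 0.40 (SD, n = 3 and 5; limma adjusted p = 0.00777, lost without POMCMfn2KO 2 and 3 together). Another tested Ccn1 probe set, 1438133_a_at, differed by -0.51 and did not pass (limma adjusted p = 0.0659).

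Growth hormone signalling sets the transcription of Igf1, Igfals and Socs2. Of its 10 tested genes, 1 rose and 1 fell, beside 6.36% and 10.2% of all tested genes. Socs2, a feedback inhibitor of the growth hormone receptor, read 8.26, 8.33 and 8.31 in controls and 8.44, 11.22, 10.43, 9.91 and 9.79 in POMCMfn2KO. All POMCMfn2KO livers were above the controls, liver 1 only just, with a difference of 1.66 (limma adjusted p = 0.0485). The call was lost without any single array other than POMCMfn2KO 1, and a second bright probe set, 1418507_s_at, gave 1.64 and did not pass (limma adjusted p = 0.0576). The mean of all 6 Socs2 probe sets, 3 of them too dim to be tested, gave 0.62 (limma adjusted p = 0.064). Socs3, the inhibitor induced by cytokines, fell by 0.80 (limma adjusted p = 0.00364). A second probe set of Socs3 gave -0.87 and another gave -0.21, which did not pass. Ghr itself differed by -0.61 and did not pass (limma adjusted p = 0.090), but passed without POMCMfn2KO 4 (-0.76, limma adjusted p = 0.0132). Stat5b, the transcription factor that carries the signal to Igf1, had a difference of 0.01.

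In the signalling list of the IGF and insulin receptors, 3 of 17 tested genes rose and 1 fell, beside 6.36% and 10.2% of all tested genes. Irs2, the docking protein whose transcription insulin represses, read 6.45, 6.44 and 6.60 in controls and 7.99, 8.20, 8.19, 7.28 and 7.48 in POMCMfn2KO. Livers 4 and 5 were the lowest of the 5, as for Igfbp1, and all were above the controls (difference 1.33, limma adjusted p = 0.00467). Pik3ca, the catalytic subunit of phosphoinositide 3-kinase, rose by 0.43 (limma adjusted p = 0.0099, lost without control 1 or 2 and without POMCMfn2KO 2 and 3 together). Pdpk1, the kinase that activates AKT, rose by 0.36 (limma adjusted p = 0.0336, lost without any single control and without POMCMfn2KO 2 or 3). Another Pdpk1 probe set, 1416501_at, differed by 0.24 and did not pass (limma adjusted p = 0.168). The regulatory subunit Pik3r1 fell by 0.35 (limma adjusted p = 0.0255, lost without any single control and without POMCMfn2KO 3). Of its other tested probe sets, 1425514_at fell by 1.00 (limma adjusted p = 0.000325) and 1451737_at by 0.50 (limma adjusted p = 0.0112), and 1425515_at differed by -0.17 and did not pass. Irs1 (0.17) and Foxo1 (-0.35) did not pass, and Foxo1 passed without POMCMfn2KO 1 (-0.49, limma adjusted p = 0.0109). The other tested Foxo1 probe sets, 1416982_at and 1416981_at, differed by -0.07 and 0.04 over all arrays and did not pass.

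Of 17 tested transcription factors known to act on hepatic Igfbp1, Igfbp2 or Igf1, 2 rose and 2 fell. The shares over all tested genes were 6.36% and 10.2%. Foxa1, a forkhead pioneer factor, rose by 1.27 (limma adjusted p = 0.0157, lost without any single control). Creb1, the cyclic AMP-responsive factor, went from 7.78 ± 0.10 to 8.45 ± 0.11 (SD, n = 3 and 5; limma adjusted p = 0.00154). Srebf1, an insulin-induced lipogenic factor, went from 10.56 ± 0.15 to 9.05 ± 0.21 (SD, n = 3 and 5; limma adjusted p = 0.000192). Cebpa fell by 0.29 (limma adjusted p = 0.0415, lost without any single control and without POMCMfn2KO 2, 3 or 5).

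Of 12 tested hepatic genes known to rise with low insulin, glucagon or fasting, Igfbp1 apart, 5 rose and 0 fell. Their median difference was 0.40. Of all tested genes, 6.36% rose and 10.2% fell. This list was also chosen with earlier results of these data known, so its counts are a description and not a test. With an unadjusted limma p under 0.05, 6 of the 12 were higher and 0 lower, beside 13.8% and 18.8% of all tested genes. Without POMCMfn2KO livers 2 and 3, Irs2, Fgf21 and Angptl4 passed, while G6pc (limma adjusted p = 0.0572) and Pck1 (0.0783) did not. The 5 that rose were Irs2, Fgf21, Angptl4, G6pc and Pck1. Fgf21, a fasting-induced hormone, differed by 1.29 (limma adjusted p = 0.000497) and Angptl4, an inhibitor of lipoprotein lipase, by 0.78 (limma adjusted p = 0.000253). G6pc, which releases free glucose, differed by 0.60 (limma adjusted p = 0.0145, lost without any single control) and Pck1, which makes phosphoenolpyruvate, by 0.36 (limma adjusted p = 0.0158, lost without control 1 or 3). Another tested Pck1 probe set, 1439617_s_at, differed by 0.62 and did not pass (limma adjusted p = 0.0506). Lpin1 had a difference of 0.99 with values on both sides of the controls and did not pass. Also not passing were Tat (0.44), Sesn1 (0.15), Cpt1a (0.14), Ppargc1a (-0.09), Sesn3 (-0.18) and Trib1 (-0.33).

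**Figure D4:**
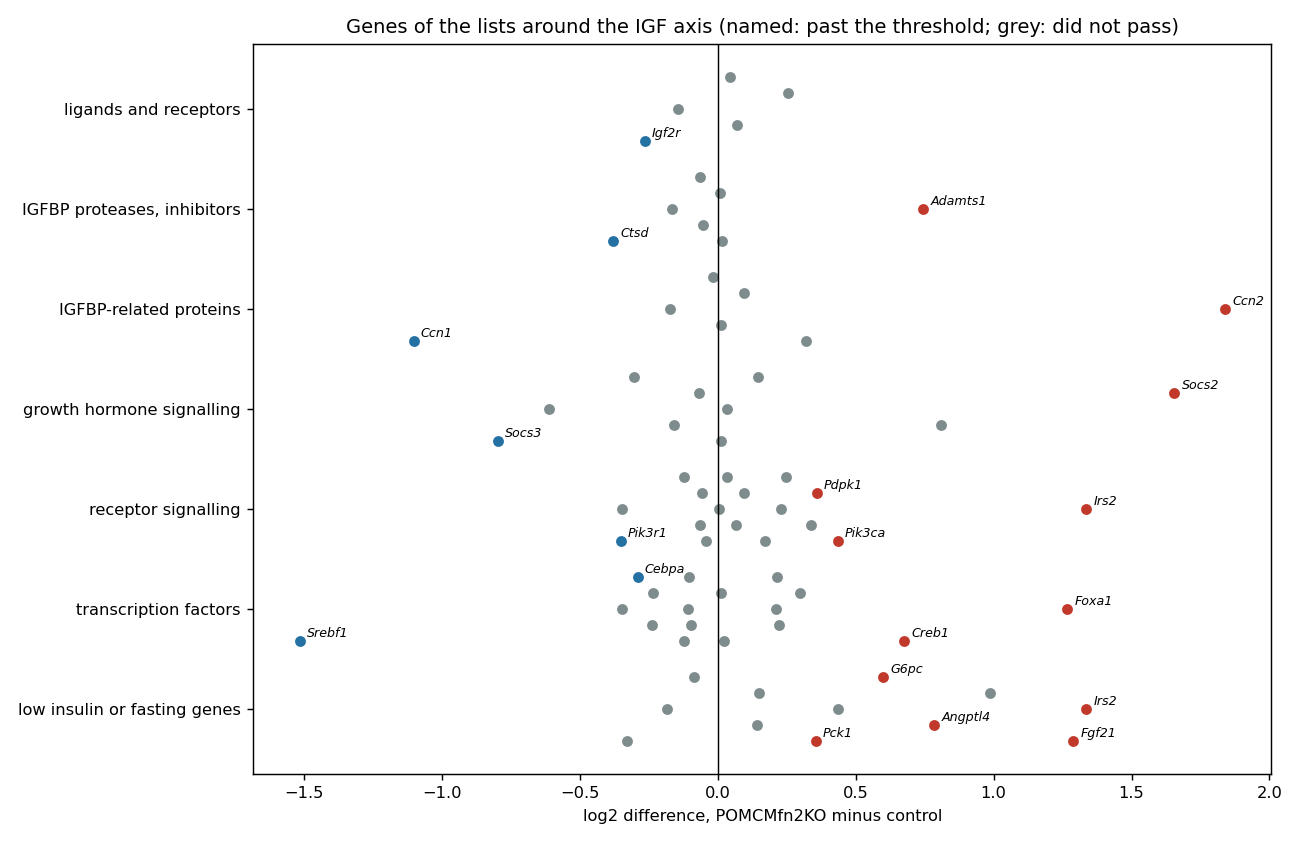
Log2 difference, POMCMfn2KO minus control (x axis), of the brightest probe set of each tested gene in 7 lists around the IGF axis (y axis, points spread for legibility); red genes rose, blue genes fell and grey genes did not pass. Most of the 71 genes are grey and lie near 0, and the list of fasting genes has 5 red points and 0 blue. The lists were chosen with earlier results of these data known.

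The genes with profiles most like a member were found by the root mean square difference over the 8 arrays, after subtracting the control mean from each probe set. For Igfbp1 they were Serpina4-ps1 (0.31), Hspa1b (0.48), Egfr (0.52), Cyp17a1 (0.56) and Ccn2 (0.60). For Igfbp2 they were Hspa1b (0.28), Serpina4-ps1 (0.49), Egfr (0.49), Creld2 (0.62) and Hsph1 (0.64). Serpina4-ps1, Hspa1b and Egfr were in both lists. Egfr, the epidermal growth factor receptor, read 9.79, 9.80 and 9.75 in controls and 12.05, 11.92, 11.82, 12.14 and 11.38 in POMCMfn2KO, so its highest liver was number 4, which was the lowest for Igfbp2. For Igf1 they were Srsf2 (0.05), Amh (0.06), Sult2a8 (0.07), Usp31 (0.07) and 4933423K11Rik (0.07). These distances are smaller because Igf1 and these genes all lay close to their control means.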

How the data were processed

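The authors deposited log2 expression values per probe set for 8 arrays, made with RMA from the affy package, per the submitters' processing notes, which give no version. RMA equalises the arrays' distributions, so differences are relative to the bulk of probe sets, and it can compress large changes. Scanner files were not used here, and the genome build behind the probe sets is not given in the sources used here. The values were used as they stand. They hold no counts, and their precision is limited by the number of mice.

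Of 45101 probe sets, 64 were controls. Of the others, those with a mean over the 8 arrays of at least 5.80, the median of these means, were tested: 22519 of 45037. Symbols came from the platform annotation: 34945 probe sets had 1 symbol, 932 several and 9160 none. limma 3.58.1 in R 4.3.3 (lmFit and eBayes, no trend, not robust, no covariate) compared POMCMfn2KO with control, 2-sided, with Benjamini-Hochberg adjustment over all tested probe sets at 0.05. The fit was checked on simulated data, with both groups drawn with the same spread, taken from the controls. In the real data the median SD over all tested probe sets was 0.074 in controls and 0.139 in POMCMfn2KO. The check does not cover such unequal spread. Promoter windows came from RefSeq's table for GRCm38.p6. Plots were made in Python 3.11.15 (matplotlib 3.10.9).

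The members and the gene lists were chosen with earlier results of these data known. The text names every member probe set, list genes past the threshold or named for their role (Igf2, Insr, Igf2r, Ghr, Stat5b, Foxo1, Irs1, Irs2), and the 5 genes nearest to Igfbp1, Igfbp2 and Igf1. Other genes were named after their values were seen. Alternatives changed the dim filter, the probe sets per gene, the variance model, the scaling and the block, and left out arrays. Each p-value sets a difference in means against a spread between these mice, which limma adjusts using all tested probe sets.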

Additional observations from a re-analysis of the deposited data

Results flagged for a closer look

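The highest and lowest POMCMfn2KO livers were examined in 48 probe sets of the members and of the named list genes for a value that stands apart from the other 4 by Dixon's 95% criterion. In 4 of the 48 a liver stood apart, and about 1 in 20 groups does so by chance. Igfbp2 (1454159_a_at) was low in POMCMfn2KO 4, at 12.90 against 13.46 to 13.63 in the other 4. Igfbp4 (1421992_a_at) was high in POMCMfn2KO 4, at 10.83 against 10.43 to 10.53. Igfals (1422826_at) was low in POMCMfn2KO 1, at 9.07 against 10.06 to 10.31. Pik3ca (1460326_at) was low in POMCMfn2KO 1, at 8.82 against 9.0 to 9.07.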

How the results depend on the processing

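Of 341 values of the members under alternatives, 317 kept their direction and their side of the threshold, 8 lost a call, 9 gained one and 7 changed sign. The 2 member probe sets that rose became 4 with a trended and robust variance, 4 with the replicate block and 1 without POMCMfn2KO 2 and 3, and 2 to 5 without single arrays. The 2 that fell became 1 with the block, 1 without POMCMfn2KO 2 and 3, and 1 to 2 without single arrays. Shares over all tested probe sets are not given for the trended and robust variance or for the block. The member counts under these settings are therefore not set against the whole array. In the lists, the 12 that rose became 6 and the 7 that fell became 2 without POMCMfn2KO 2 and 3, and 5 to 16 and 3 to 9 without single arrays. Over all tested probe sets, 1545 rose and 1907 fell, 390 and 564 without POMCMfn2KO 2 and 3, and 471 to 2144 and 628 to 2441 without single arrays; the fewest calls came without control 1. No label says that replicate numbers pair the mice. Correlations of same-numbered deviations were 0.08, 0.09 and -0.04, beside -0.07 to 0.09 for differently numbered ones. These ranges overlap, so the correlations cannot settle whether the mice were paired. With the block, which uses 3 pairs and leaves POMCMfn2KO 4 and 5 without a partner, both Igfbp3 probe sets passed (0.99 and 0.73), Igfbp4 1423756_s_at did not (-0.32), and the sign turned for Igf1r 1452982_at (-0.000235) and Stat5b (-0.00649). Without single arrays the sign also turned for Igf1r 1452982_at (-0.00454 to 0.0895), Igfbp4 1421991_a_at (-0.0769 to 0.0139), Igfals (-0.139 to 0.172) and Igf1 1419519_at (-0.157 to 0.00798). The cause was not tested. No other scaling moved the median of all tested probe sets by over 0.1. The SD of POMCMfn2KO livers without livers 2 and 3 was 1.06 for Igfbp1, 0.34 for Igfbp2 and 1.04 for Igfbp3.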
